A study of Mus musculus with 18 samples.

Results

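Myogenic differentiation of MyoD-null mouse muscle cells was examined through chromatin accessibility, taking the genotype of the differentiated cells from the names of their peaks. The comparison set a list of myocyte peaks, whose peak names read MKO-DM, against the list of MyoD-null myoblast peaks on chromosomes 1 to 19. MKO marks the MyoD knockout in the sample titles. The file that holds the myocyte list is named for wild-type myocytes, and the labels of its 3 samples also give the wild-type genotype, so peak names and labels contradict each other and the genotype of these cells cannot be settled from them. The list is called the MKO-DM myocytes below, after its peak names. The labels of the myoblast list and its peak names both give the knockout.

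The comparison draws on 6 of the 18 samples of the series, 3 per list, and on 129401 merged regions. The MKO-DM myocytes had undergone myogenic differentiation for 24 h, and the myoblasts carry no treatment in their labels. All cells came from skeletal muscle of mice, for which the sources used here give no strain, age or number of animals. Each list was called on merged reads of its 3 samples, so there is no spread between replicates and no test of the groups was possible. The peak names of the myocyte list carry a prefix that the myoblast list lacks, so that effects of differentiation and of separate handling cannot be told apart. If the labels hold, the lists compared also differ in genotype, and effects of differentiation and of MyoD loss cannot be told apart either. Another 2 lists, wild-type myoblasts and a second myocyte list whose peak names read WT-DM and whose labels give MyoD knockout, are used here only to say where else a region was listed. The remaining 6 samples were RNA-seq of the C2C12 myoblast line with and without CTCF knockdown and were not analysed here.

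MyoD is a basic helix-loop-helix transcription factor that binds E-box sequences, can open closed chromatin at muscle genes and can convert other cell types towards muscle. Myoblasts are proliferating muscle precursors. On withdrawal of growth factors they leave the cell cycle, become myocytes and later fuse into myotubes. Muscle still forms in mice without MyoD, in which the related factor Myf5 can act in its place, but cultured myoblasts without MyoD are known to differentiate poorly. ATAC-seq reads out where a transposase can insert adapters, so that a peak marks accessible DNA, mostly promoters and enhancers. No gene annotation or genome of the build of the lists (mm9) was used here, so that regions are given by position, no gene is assigned and the muscle identity of the cells was not checked against marker genes.

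The MKO-DM myocyte list was the longer, with 109753 peaks over 66.3 Mb, against 100192 peaks over 50.3 Mb in MyoD-null myoblasts. Its peaks were also wider, with a median of 498 bp against 398 bp in myoblasts. The fold enrichment is the pileup of reads at the summit of a peak over its local background, as given by the authors. Its median was 4.79 in the MKO-DM myocytes and 3.72 in MyoD-null myoblasts. The number of reads over each summit could be recovered from the deposited values. Its median was 45 in the MKO-DM myocytes and 47 in the myoblasts, over a genome-wide background of 5.29 and 8.54 reads per base. At that background a summit was listed from 15 reads in the myocytes and from 21 in the myoblasts. A region missing from a list was not detected at its depth and need not have been closed. Read totals per sample are unknown, and the background alone does not give the depth.

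More regions were listed in the MKO-DM myocytes alone than in the myoblasts alone. Of the myocyte peaks, 32699 did not overlap a MyoD-null myoblast peak by 1 bp or more, which is 29.8% of the list (95% Wilson interval 29.5 to 30.1). Of the myoblast peaks, 20003 or 19.96% (19.7 to 20.2) did not overlap a myocyte peak. After merging, 76699 regions (59.3%) were listed in both, 32699 (25.3%) in the myocytes alone and 20003 (15.5%) in the myoblasts alone. The myocyte regions without overlap covered 13.1 Mb and the myoblast regions 5.999 Mb. These intervals, like those below, cover counting error only. The order of the 2 counts rests on which myocyte list is taken as MyoD-null. With the WT-DM list, which the labels call MyoD-null, 13891 of 86575 myocyte peaks (16.0%) and 24886 of 100192 myoblast peaks (24.8%) were without overlap. With lists of equal length, 86575 peaks each, the counts were 22452 (25.9%) for the MKO-DM myocytes and 20057 (23.2%) for the myoblasts.

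Regions listed in 1 list alone were mostly weak, and nearly all strong myoblast peaks overlapped a myocyte peak. In the decile of the myocyte list with the lowest folds, 54.8% (53.9 to 55.7) of peaks lacked a myoblast peak. In the decile with the highest folds, 8.61 and above, 5.63% (5.21 to 6.08) did, or 618 of 10976 peaks. For the myoblast list the shares were 38.7% (37.7 to 39.6) in the weakest decile and 0.210% (0.137 to 0.320) in the strongest, which is 21 of 10020 peaks. The strongest decile of the myocytes thus held 618 peaks without a counterpart and that of the myoblasts 21. Among peaks with a fold of at least 5 in their own list, 6974 of 51325 myocyte peaks and 303 of 24140 myoblast peaks were without overlap. At a fold of at least 8 the counts were 998 of 14976 in the myocytes and 2 of 3378 in the myoblasts. An equal fold takes unlike parts of the 2 lists, since folds at shared regions were higher in the myocytes by a median factor of 1.26. The myocyte list is also the longer and was listed from fewer reads, 15 against 21 at the genome-wide background. How far these differences account for the unequal counts was not tested.

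**Figure D1:**
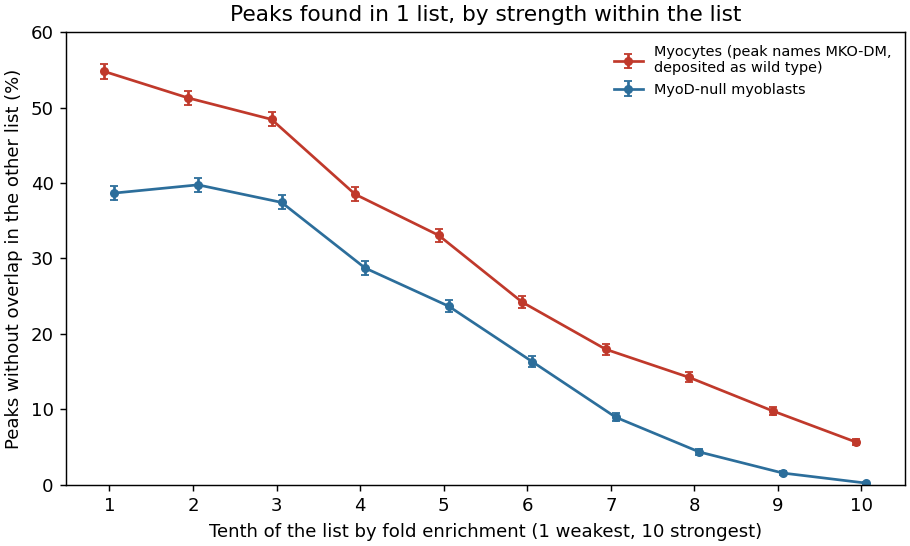
Share of peaks without overlap in the other list (percent, y axis) in each decile of fold enrichment within the list (x axis, 10 holds the strongest). Points are the MKO-DM myocytes (red) and MyoD-null myoblasts (blue), bars are 95% Wilson intervals for counting error; the share drops to 5.63% in the strongest myocyte decile and to 0.210% in the strongest myoblast decile.

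Width and local background also differed between peaks without overlap and shared peaks. Myocyte peaks without overlap had a median width of 348 bp, a median fold of 3.82 and a median of 30 reads at the summit, while the shared peaks of that list had 594 bp, 5.43 and 55 reads. Myoblast peaks without overlap had 273 bp, 3.04 and 33 reads, and the shared ones 450 bp, 4.02 and 53 reads. Of myocyte peaks under 300 bp wide, 61.3% were without overlap, and of those of 1000 bp or more 3.28% were. In the myoblasts the shares were 43.7% and 0.156%. The local background recovered for a peak is a measure of reads in its neighbourhood. With the caller settings unknown, it may include the reads of the peak itself. The local background stood at the genome-wide level for 42.1% of the myocyte peaks without overlap and for 23.4% of the shared ones. Shared peaks were wider and held more reads, so this contrast need not come from the surroundings. In the myoblasts these shares were 43.1% and 22.0%.

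Few peaks without overlap lay within 500 bp of a peak of the other list, 5.89% in the myocytes and 8.42% in the myoblasts. Within 5000 bp the shares were 52.3% and 49.9%. Distances were not compared with those of random positions. The nearest myoblast peak lay a median of 4681 bp from a myocyte peak without overlap, and the nearest myocyte peak 5022 bp from a myoblast peak without overlap. Only 46 such myocyte peaks and 89 such myoblast peaks came within 50 bp of a peak in the other list. On the inner side of the rule, 86 shared myocyte peaks and 155 shared myoblast peaks overlapped by under 50 bp. Median folds on both sides of the limit were low, 3.31 (outside) and 3.48 (inside) in the myocytes and 2.75 (outside) and 2.70 (inside) in the myoblasts. At the genome-wide background the lowest listed fold was 2.55 in the myocytes and 2.31 in the myoblasts. Of the 13766 myocyte peaks without overlap at that background, 96.9% (96.5 to 97.1) had folds that would still reach the myoblast limit after division by 1.26, the median ratio of folds at shared regions described below. Measured as reads at the summit over the genome-wide background, for which that ratio was 1.59, the share was 79.3% (78.6 to 79.97), a value added after seeing the data. The share thus depended on the measure of strength. In the opposite direction all 8619 myoblast peaks at the genome-wide background reached the myocyte limit on both measures, which their own listing already ensured. Both shares use only the list in which the peaks were found, and listing there sets them high. They hold no measurement of these regions in the other list, so why the regions were missing there was not tested.

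The other lists showed where such regions were also accessible. Of the 32699 myocyte peaks without overlap, 22506 or 68.8% (68.3 to 69.3) were in neither the WT-DM myocytes nor wild-type myoblasts. A further 4852 (14.8%) were also listed in the WT-DM myocytes alone, 2554 (7.81%) in wild-type myoblasts alone and 2787 (8.52%) in both. At the lengths of the lists as given, more than 2 in 3 of these peaks were thus listed in the MKO-DM myocytes and nowhere else. The WT-DM list was the shortest of the 4, with 86575 peaks, and wild-type myoblasts had 96420. With lists of equal length, 32.2% of such myocyte peaks were in the WT-DM myocytes, against 23.4% otherwise. How far list length accounts for the share in neither was not tested. Of the 20003 myoblast peaks without overlap, 7690 or 38.4% (37.8 to 39.1) were in neither, 6677 (33.4%) were also in wild-type myoblasts alone, 1242 (6.21%) in the WT-DM myocytes alone and 4394 (22.0%) in both. For comparison, 84.0% of the shared myocyte peaks and 83.6% of the shared myoblast peaks were in both of these lists. In neither were 4.06% of the shared myocyte peaks and 4.19% of the shared myoblast peaks.

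**Figure D2:**
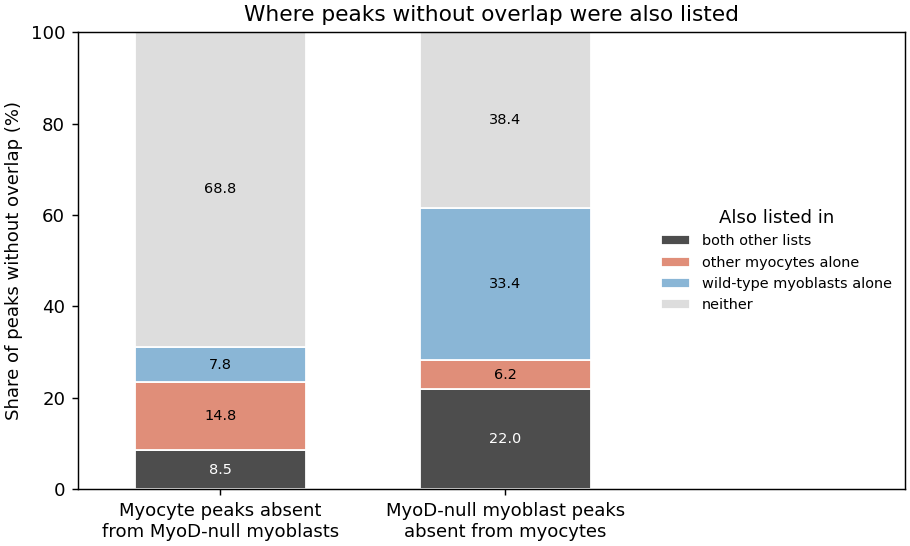
Stacked shares (percent, y axis) of the 32699 MKO-DM myocyte peaks absent from MyoD-null myoblasts (left) and of the 20003 myoblast peaks absent from those myocytes (right), by the other lists in which they were also found. The share found in neither is 68.8% for the myocyte peaks and 38.4% for the myoblast peaks.

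The shares also listed elsewhere varied with strength. Among the 618 myocyte peaks without overlap in the strongest decile, 65.7% were in neither other list, 27.5% were in the WT-DM myocytes and 16.5% in wild-type myoblasts. In the weakest decile, with 6014 such peaks, the shares were 72.4%, 21.4% and 12.9%. In both deciles most of these peaks were in neither other list. Of the myoblast peaks without overlap in the weakest decile (3875 peaks), 24.9% were in the WT-DM myocytes and 38.8% in wild-type myoblasts. In the ninth decile (155 peaks) 76.8% were in the WT-DM myocytes and all 155 in wild-type myoblasts. Of the 303 myoblast peaks without overlap at a fold of at least 5, 220 were listed in the WT-DM myocytes and 302 in wild-type myoblasts. Strong myoblast regions missing from the MKO-DM myocytes were thus mostly present in the WT-DM myocytes and nearly always in wild-type myoblasts. Of the shared myoblast peaks of all strengths, 86.9% were in the WT-DM myocytes and 92.5% in wild-type myoblasts. The shares over all peaks of a decile were not taken, so whether strong peaks without overlap differ from other strong peaks was not tested. Whether the shares differ by more than replicates would was not tested.

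The 10 strongest myocyte peaks without overlap had folds of 13.1 to 17.3, with 83 to 117 reads at the summit and widths of 517 to 895 bp. The strongest, at chr16:46251674-46252302 (mm9), had a fold of 17.3 with 117 reads over a local background of 5.82, and ranked 4 in the whole list. No MyoD-null myoblast peak lay within 17800 bp. In wild-type myoblasts it was listed at a fold of 3.27 with 29 reads, and it was not listed in the WT-DM myocytes. The next, at chr10:16509402-16509996, reached a fold of 14.95 with 93 reads over the genome-wide background and was in no other list. This site lay 88084 bp from the nearest myoblast peak.

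Of these 10 sites, 7 were listed in the MKO-DM myocytes alone. Besides the chromosome 10 site they were chr12:27920441-27921233 (fold 14.6, 111 reads), chr7:37355964-37356812 (14.0, 91 reads), chr7:63423933-63424703 (13.8, 98 reads), chr5:43485437-43486189 (13.7, 85 reads), chr13:82734558-82735452 (13.4, 83 reads) and chr19:31979981-31980794 (13.1, 106 reads). The chromosome 13 site was the most isolated, 296201 bp from the nearest myoblast peak. The remaining 2 were chr11:72876640-72877156, with a fold of 13.7 here and 3.16 in wild-type myoblasts, and chr10:68701013-68701595, with 13.2 here and 5.32 in the WT-DM myocytes. The last of these lay 1811 bp from a MyoD-null myoblast peak.

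The 10 strongest myoblast peaks without overlap were weaker, with folds of 6.81 to 8.80 and 64 to 83 reads, and ranked between 1605 and 7902 in their list. All 10 were listed in wild-type myoblasts and 7 in the WT-DM myocytes. The strongest, at chr11:8285844-8286484, had a fold of 8.80 with 83 reads in MyoD-null myoblasts. It was listed at 9.22 with 101 reads in the WT-DM myocytes and at 7.32 with 71 reads in wild-type myoblasts. It was thus missing from the MKO-DM myocytes alone, where the nearest peak lay 4614 bp away. A site at chr10:20142926-20143522 had a fold of 6.81 in MyoD-null myoblasts, 8.80 in the WT-DM myocytes and 7.37 in wild-type myoblasts.

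Only 3 of the 10 were missing from both myocyte lists. These were chr7:70947561-70948134 (fold 8.49, 80 reads in MyoD-null myoblasts, and 4.90 in wild-type myoblasts), chr17:36621607-36621952 (7.86, 74 reads in MyoD-null myoblasts, and 5.45 in wild-type myoblasts) and chr3:123165211-123165560 (7.23, 68 reads in MyoD-null myoblasts, and 4.78 in wild-type myoblasts). All 3 had the higher fold in the MyoD-null myoblasts of the 2 myoblast lists. They were chosen for a high fold in that list, so this order is no sign of a difference between the genotypes. The remaining 5 sites, with folds of 6.81 to 7.96 in MyoD-null myoblasts, were chr13:35239828-35240259, chr9:13422549-13422959, chr10:40316974-40317330, chr1:40836694-40837240 and chr10:23418786-23419222. Their folds ranged from 3.41 to 7.37 in the WT-DM myocytes.

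Most shared regions were stronger in the MKO-DM myocytes by a modest factor. Regions with exactly 1 peak in each list numbered 73041, and the median fold there was 5.42 in the myocytes and 4.09 in the myoblasts. The median log2 ratio of folds was 0.34 (quartiles 0.10 and 0.60), and 83.5% (83.2 to 83.7) of the regions had the higher fold in the myocytes. Measured as reads at the summit over the genome-wide background, the median log2 ratio was 0.67. Because each list has its own background and depth, this common shift cannot be told apart from a difference of scale between the lists, and regions were compared relative to it. The median log2 ratio was 0.17 in the lowest of 5 equal classes of mean fold and 0.43 in class 4, so that it was not the same at all levels.

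**Figure D3:**
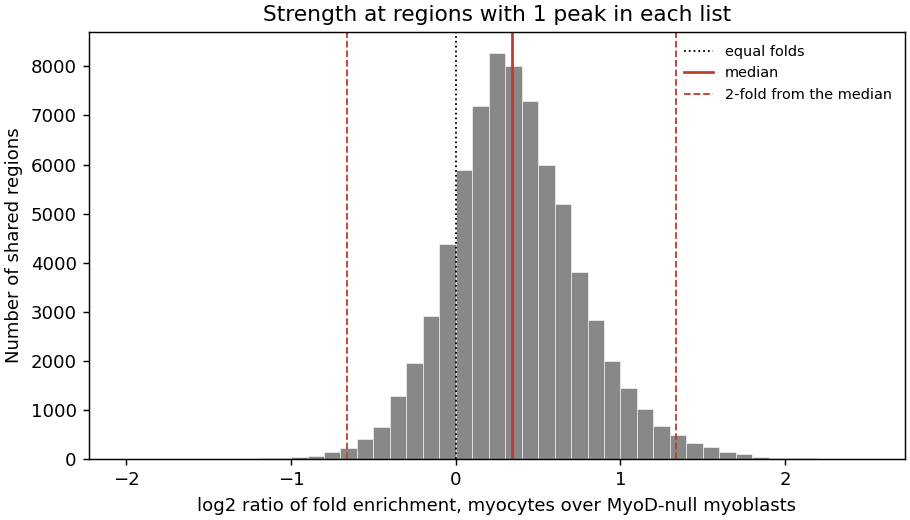
Number of regions (y axis) by the log2 ratio of fold enrichment, MKO-DM myocytes over MyoD-null myoblasts (x axis), at the 73041 regions with 1 peak in each list. The solid red line is the median, 0.34, the dashed lines mark a 2-fold departure from it and the dotted line marks equal folds; most of the distribution lies right of equal folds.

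Few shared regions departed from the common shift by 2-fold or more. After the median was subtracted, 1140 regions (1.56%) were at least 2-fold higher in the MKO-DM myocytes and 319 (0.437%) at least 2-fold lower. With 1 median subtracted at all levels, the balance differed by level. The lowest class of mean fold held 1 higher and 77 lower regions, class 2 held 72 and 96, class 3 held 401 and 93, class 4 held 518 and 46, and the highest class 148 and 7. Both peaks of a region had to be listed, which limits how far the folds can differ where the mean fold is low. How far this shaped the balance was not tested. The higher group went with a change in width, with medians of 718 bp in the myocytes and 299.5 bp in the myoblasts, and the lower group with 293 bp in the myocytes and 460 bp in the myoblasts. Where the higher regions were listed in all 4 lists (674 regions), the median fold was 9.41 in the MKO-DM myocytes and 3.25 in MyoD-null myoblasts. At these regions it was 4.62 in the WT-DM myocytes and 3.52 in wild-type myoblasts. For the lower regions (289 in all lists) it was 3.24 in the MKO-DM myocytes and 5.56 in MyoD-null myoblasts, and 5.04 in the WT-DM myocytes and 5.12 in wild-type myoblasts. These regions were chosen for their ratio between the 2 lists compared, so that only their folds in the other lists are information beyond that choice. Without selection by ratio, the 60909 regions found in every list had median folds of 5.78 in the MKO-DM myocytes and 4.40 in MyoD-null myoblasts, and 5.04 in the WT-DM myocytes and 4.36 in wild-type myoblasts.

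Among regions with a q-value of 1e-20 or lower in either list, the largest centred increase was at chr1:16616007-16616562. Its fold was 15.4 with 96 reads in the MKO-DM myocytes and 2.93 with 27 reads in MyoD-null myoblasts, a log2 ratio of 2.39 or 2.06 after centring. It was also listed at 8.86 in the WT-DM myocytes and at 3.38 in wild-type myoblasts, so that both myocyte lists exceeded both myoblast lists there. Another region on the same chromosome, chr1:16951187-16951993, had 12.3 with 120 reads in the MKO-DM myocytes and 2.72 with 25 reads in MyoD-null myoblasts, and 3.13 in the WT-DM myocytes. The other 3 were chr15:96952635-96953333 (fold 11.7 in the myocytes and 2.52 in the myoblasts), chr11:84908491-84909094 (13.7 in the myocytes and 3.04 in the myoblasts) and chr16:86015474-86016265 (14.96 in the myocytes and 3.35 in the myoblasts), and none of these was listed in the WT-DM myocytes.

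The largest centred decrease was at chr7:123243602-123244063, with a fold of 2.86 and 17 reads in the MKO-DM myocytes and 7.65 and 72 reads in MyoD-null myoblasts, a log2 ratio of -1.42 or -1.76 after centring. In the WT-DM myocytes the region had a fold of 11.8 and in wild-type myoblasts 9.59. At chr12:111011945-111012618 the folds were 2.70 in the MKO-DM myocytes and 7.13 in MyoD-null myoblasts, against 12.9 in the WT-DM myocytes and 7.30 in wild-type myoblasts. At both of these sites the MKO-DM myocytes had the lowest fold of the 4 lists and the WT-DM myocytes the highest. Then followed chr7:63677221-63677675 (3.02 in the MKO-DM myocytes and 7.44 in the myoblasts), chr1:12867686-12868381 (2.70 in the myocytes and 6.29 in the myoblasts) and chr14:80329174-80329780 (3.50 in the myocytes and 7.96 in the myoblasts). The last 2 were not listed in the WT-DM myocytes, and the chromosome 7 region was listed there at 5.45. The sites named in each direction were chosen for their ratio between the MKO-DM myocytes and MyoD-null myoblasts. The order of the folds in those lists follows from that choice.

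All 19 chromosomes took part to a similar degree. The share of myocyte peaks without overlap ran from 27.1% (26.1 to 28.1) on chromosome 11 to 32.3% (30.9 to 33.8) on chromosome 18. The share of myoblast peaks without overlap ran from 17.9% (16.6 to 19.3) on chromosome 19 to 21.9% (20.6 to 23.3) on chromosome 14. On each chromosome the share was higher in the myocytes.

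**Figure D4:**
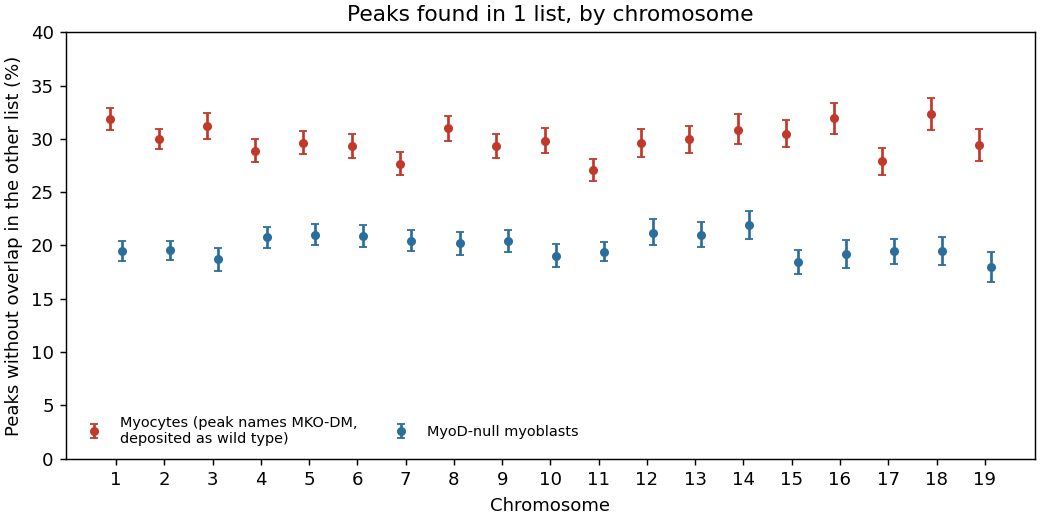
Share of peaks without overlap in the other list (percent, y axis) on chromosomes 1 to 19 (x axis) for the MKO-DM myocytes (red) and MyoD-null myoblasts (blue), with 95% Wilson intervals for counting error. All myocyte shares lie between 27.1% and 32.3% and all myoblast shares between 17.9% and 21.9%.

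A peak was more often without overlap when the peak before it was, although most peaks after one without overlap were shared. In the myocyte list, 32.7% (32.2 to 33.2) of peaks that followed a peak without overlap were themselves without overlap, and 28.6% (28.2 to 28.9) of those that followed a shared peak. In the myoblast list the shares were 26.6% (26.0 to 27.2) and 18.3% (18.04 to 18.6). Successive peaks without overlap formed 347 runs of 5 or more in the myocytes and 157 in the myoblasts, and 4 runs of 10 or more in each.

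The longest myocyte run held 11 peaks within 230 kb at chr2:76537696-76768162. The folds were low, 1.96 to 2.91, while the local background was 8.84 to 31.6 reads per base against 5.29 genome-wide and the summits held 25 to 67 reads. The local background of every peak of the stretch was thus above the genome-wide level in the MKO-DM myocytes, and the peaks stood little above it. Over the same stretch the WT-DM myocytes had 0 peaks, MyoD-null myoblasts 1 and wild-type myoblasts 1. The stretch thus separated the 2 myocyte lists, whose genotypes are in conflict, by 11 peaks in one and 0 in the other, and its bearing on that conflict was not tested. Runs of 10 peaks lay at chr2:67154500-67316152, with folds of 3.03 to 8.54, at chr15:59805935-60551216, with folds of 3.18 to 11.5, and over 141 kb of chromosome 18, with folds of 2.87 to 10.3. None of the 10-peak stretches held a MyoD-null myoblast peak, and they held 0 or 1 peaks of the WT-DM myocytes. A run of 9 peaks spanned 79.3 kb at chr17:84755358-84834630, where the WT-DM myocytes listed 2 peaks, MyoD-null myoblasts 0 and wild-type myoblasts 5.

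The longest myoblast run held 13 peaks over 1251 kb at chr14:35709783-36960868, with folds of 2.38 to 5.34. The MKO-DM myocytes had no peak in this stretch, the WT-DM myocytes had 3 and wild-type myoblasts 9. Runs of 11 and 10 peaks lay at chr4:145717084-146781134, chr1:84932253-85247396 and chr16:5480285-6502630, and a run of 9 at chr5:138298264-138415288. In each of the 5 runs 1 to 5 of the peaks were also listed in the WT-DM myocytes and 5 to 8 in wild-type myoblasts.

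**Figure D5:**
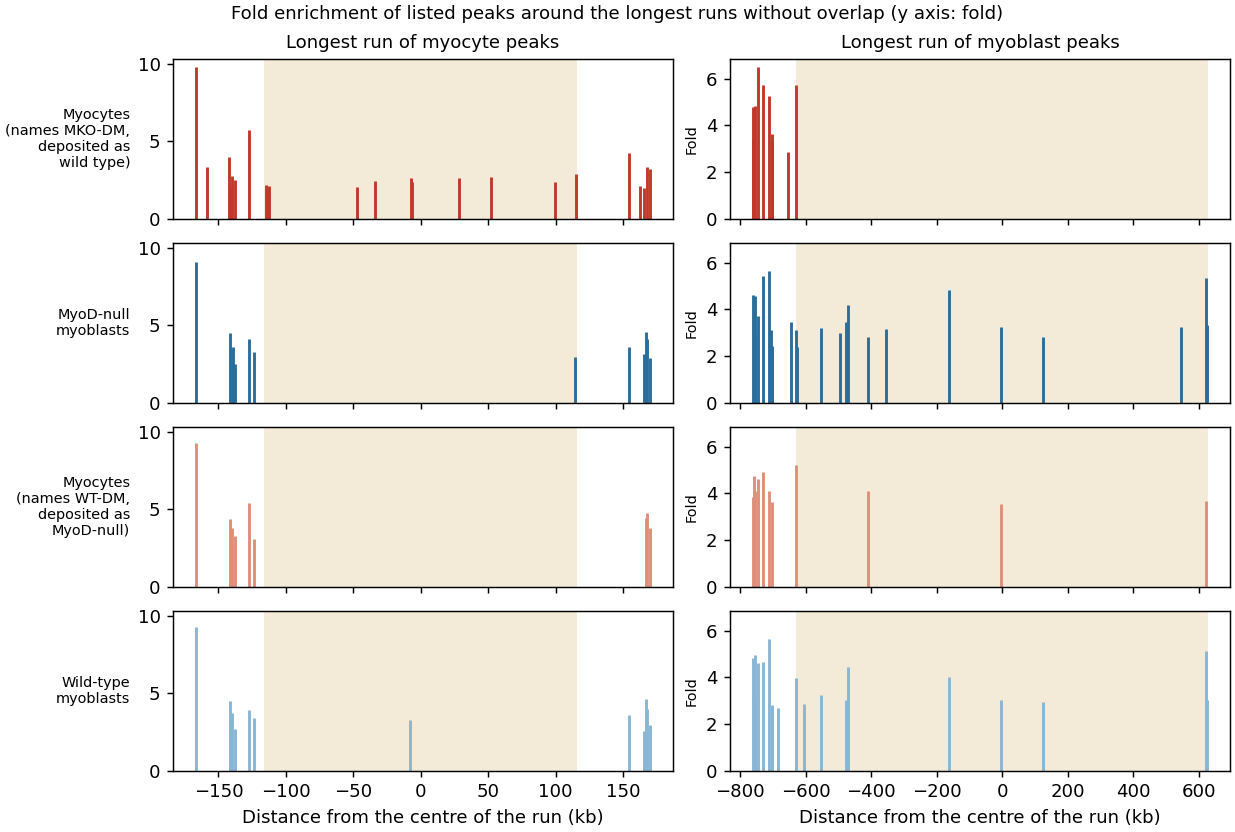
Fold enrichment (y axis) of each listed peak by its distance in kb from the centre of the run (x axis) for the longest run of MKO-DM myocyte peaks without overlap (left column, 11 peaks) and of MyoD-null myoblast peaks without overlap (right column, 13 peaks); rows are the 4 lists and the shaded band is the run. Flanking peaks appear in all 4 lists, while the myocyte band holds 0 or 1 peaks in each other list.

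By fixed windows of 100 kb, 1661 windows held 5 or more myocyte peaks without overlap and 329 held as many myoblast peaks. The highest number of myocyte peaks without overlap was 12, reached in 6 windows, of which the first 5 in chromosome order are given. At chr1:183900001-184000000 the MKO-DM myocytes listed 20 peaks and MyoD-null myoblasts 10, with 10 in the WT-DM myocytes and 7 in wild-type myoblasts. At chr6:114700001-114800000 there were 19 in the MKO-DM myocytes and 8 in MyoD-null myoblasts, with 11 in the WT-DM myocytes and 9 in wild-type myoblasts. The windows at chr1:74000001-74100000 (28 in the myocytes and 15 in the myoblasts), chr1:92900001-93000000 (27 in the myocytes and 19 in the myoblasts) and chr7:139900001-140000000 (24 in the myocytes and 17 in the myoblasts) each held 15 or more peaks in every list.

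In the opposite direction the window at chr11:3000001-3100000 came first, with 17 myoblast peaks without overlap among 14 peaks in the MKO-DM myocytes and 29 in MyoD-null myoblasts. The folds of those 17 were 1.52 to 3.04. The window at chr8:19900001-20000000 followed, with 16 such peaks among 8 in the myocytes and 23 in the myoblasts. The WT-DM myocytes listed 20 peaks in the first window and 9 in the second, and wild-type myoblasts 26 and 19. Then came chr7:149400001-149500000 with 10 (5 in the myocytes and 14 in the myoblasts) and chr12:114500001-114600000 with 9 (4 in the myocytes and 12 in the myoblasts). At 8 peaks 6 windows were level, the first of them chr6:99600001-99700000 (2 in the myocytes and 10 in the myoblasts). No filter for artefact-prone or repeated sequence was applied, and the part of such sequence in these windows was not tested.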

How the data were processed

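ATAC-seq peaks were deposited as 1 list per group of 3 samples. Per the submitters' processing notes the build was mm9 and the tools MACS2 and deepTools. Per the peak names, reads with a MAPQ30 tag were merged before calling. Not given in the sources used here are the aligner, versions, caller settings and any shift of reads for the transposase. The fold enrichment (a ratio) and the −log10 p and −log10 q of each peak are as deposited by the authors. The lowest −log10 q was 2.03 to 2.04 in the 2 lists compared. The deposited score was not used. Folds of different lists are set side by side as given, each over its own background.

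Peaks on chromosomes 1 to 19 were kept, and coordinates count from 1. Peaks with an overlap of 1 bp or more between lists counted as shared (bedtools 2.31.1). Peaks on X and Y were used in an alternative only. For every peak, the whole-number pileup and local background that give both the deposited fold and the −log10 p were found. The recovered values matched the −log10 p within 0.01 for 100.0% of peaks in all 4 lists. Totals of reads per sample stay unknown, because the background depends on the length given to each read and may include mitochondrial reads. Shares have 95% Wilson intervals (statsmodels 0.14.6). No p-value is given, since the groups have 1 list each. Named were the 10 strongest peaks without overlap in each direction, and 5 shared regions (with a −log10 q of at least 20 in either list), 5 windows and 5 runs in each direction. Members, lists and rules were chosen with earlier results of these data known. The planned gene lists were not run, since no annotation of mm9 was used here. Scripts ran in Python 3.11.15 with pandas 2.3.3, numpy 2.4.6, matplotlib 3.10.9 and scipy 1.17.1. The overlap and pileup steps were tested on simulated peaks.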

Additional observations from a re-analysis of the deposited data

Results flagged for a closer look

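The net of the 2 counts had opposite signs in the genotypes when these were read from the peak names. Myocyte peaks without overlap minus myoblast peaks without overlap came to 12696 for MyoD-null cells (MKO-DM myocytes and MyoD-null myoblasts) and to -8268 for wild-type cells (WT-DM myocytes and wild-type myoblasts). The lists differed in length by 9561 and -9845 in the same order. With the genotypes in the labels, the net was -10995 for MyoD-null cells and 15390 for wild-type cells, with length differences of -13617 and 13333. By construction, the net is the difference in length plus the surplus of shared myoblast peaks over shared myocyte peaks. Its sign was that of the length difference each time, so it is no separate sign of a difference between the genotypes. This contrast was not tested, since each group has 1 list.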

How the results depend on the processing

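No paired analysis was possible because the lists pool their replicates, and for the same reason no replicate could be left out. Of the 60 alternatives, 28 left a value within its limits (1.5 times for counts, the 95% interval of the main value otherwise) and 32 did not. The main counts are 32699 (myocytes, 29.8% of the list) and 20003 (myoblasts, 19.96%) peaks without overlap. The cuts on q and fold below also shorten the lists. The MKO-DM myocyte count became 13241 of 74839 (17.7%) for peaks at a q of 1e-10 or lower in their own list. With the WT-DM myocytes, deposited as MyoD-null, in place of the MKO-DM myocytes, 13891 of 86575 WT-DM peaks (16.0%) were without overlap. That is below the 24886 of 100192 myoblast peaks (24.8%) without overlap in the WT-DM list. The myoblast count became 3426 of 58461 (5.86%) at a q of 1e-10 or lower. It was 1922 of 24140 (7.96%) with folds of at least 5 in every list and 34036 of 100192 (34.0%) with a reciprocal overlap of 50%. With folds of at least 5, 29144 of 51325 myocyte peaks (56.8%) were without overlap.

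The shares also listed elsewhere moved as follows. Of the myocyte peaks, 22.9% were in the WT-DM myocytes and 13.8% in wild-type myoblasts at a q of 1e-5 or lower, 31.0% and 8.34% at a fold of at least 5, 32.2% and 18.5% with lists of equal length, 26.6% and 18.1% with a reciprocal overlap of 50%, 24.6% and 17.8% with summits within 250 bp, and 24.0% and 17.2% with peaks within 500 bp. Of the myoblast peaks, 29.8% were in the WT-DM myocytes and 53.2% in wild-type myoblasts at a q of 1e-5 or lower, 53.6% and 50.2% at a fold of at least 5, and 45.3% and 63.8% with lists of equal length. The first share was 31.5% with a reciprocal overlap of 50% and 30.4% with summits within 250 bp, and the second 56.7% with peaks within 500 bp.

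The median log2 ratio of 0.339 became 0.342 at a q of 1e-5 or lower and 0.673 for pileups over the genome-wide background. Windows with 5 or more myocyte peaks without overlap, 1661 at 100 kb, numbered 511 at 50 kb, 3023 at 250 kb and 723 with lists of equal length. The cause of these shifts was not tested, apart from the window size and the stricter cuts, which change what is counted. Scaling all summits to the background of the MKO-DM myocytes, chosen after seeing the data, gave 33019 of 109752 myocyte peaks (30.1%) without overlap. For the myoblasts it gave 19406 of 99195 (19.6%). Of the 13766 myocyte peaks without overlap at the genome-wide background, 96.9% reached the myoblast limit after division by the median ratio of folds. This share became 79.3% with summit reads over the genome-wide background, also chosen after seeing the data. Listing in their own list sets both shares high.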

Other observations

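Shared regions also differed in how they were divided into peaks. Of the myocyte peaks, 3362 spanned 2 or more MyoD-null myoblast peaks, while 354 myoblast peaks spanned 2 or more myocyte peaks. At the 73041 regions with 1 peak in each list, the median width was 575 bp in the MKO-DM myocytes and 451 bp in MyoD-null myoblasts, and 72.5% (72.2 to 72.8) were wider in the myocytes. Summits stayed in place at most of them: the median distance between the summits was 44 bp, 54.8% lay within 50 bp and 3156 regions (4.32%) had summits more than 250 bp apart.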
